A study of Trachinotus blochii with 12 samples.

Results

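In Trachinotus blochii, the golden pompano, a farmed marine fish, 77 of 18490 gene models were abundant in liver and close to absent from brain. They were chosen by a mean value of 400 or more over the 6 liver libraries and a mean over the 6 brain libraries below 1% of that liver mean. No header or label names the unit of the values, and they were read as FPKM, in which fragments are divided by the length of the gene and the size of the library. The fish were 2 months old and were fasted in 3 tanks of 80, where dissolved oxygen was brought down within 2 h to 0.9 mg/L and kept there to within 0.1 mg/L. Fish that looked normal after 24 h of hypoxia made up the Tol group, and fish that were dying within 1 h, out of balance at the surface, the Intol group. The study set the transcriptomes of tolerant and intolerant fish side by side in each tissue. Each status had 3 liver and 3 brain libraries. Both groups had been through hypoxia and fish at normal oxygen are not among the libraries analysed here, so a rise or fall below compares Tol with Intol fish and not with a resting state. Tol fish were also sampled 23 h later, and status and time cannot be told apart. From each tank 14 fish were taken per status, 42 per status in all. Nothing in the labels says how many fish entered a library. P-values therefore refer to the spread of these libraries only, and that spread may be technical.

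The liver is the main source of plasma proteins. In vertebrates its hepatocytes secrete apolipoproteins, transferrin, fibrinogen, complement factors and protease inhibitors, and they carry the enzymes of bile acid synthesis, nitrogen disposal and glucose output. A small number of such transcripts usually makes up a large share of liver mRNA. Many of these genes, though not all, are silent or nearly silent in neurons and glia. In some fishes exocrine pancreas lies within the liver, and blood is always present. The files do not pair the gene models with gene names, so no member could be assigned to any of these classes, and neither the tissue labels nor the presence of other cell types could be checked with marker genes. Members are therefore called below by their rank in mean liver value, from 1 for the highest, and only the 2 largest rises and the 2 largest falls are given by identifier. No sequence of these models was used here. In bulk tissue, fewer cells of a type and less RNA per cell cannot be told apart.

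The values that chose the members describe them but test nothing. Of 202 gene models with a liver mean of at least 400, the 77 members were restricted to liver and 125 were not. The liver means of the members ran from 418 to 50369, with a median of 1224. Just outside the limit, the restricted gene model next in level had a liver mean of 394.0. The brain mean was 0.965% of the liver mean in the member closest to the limit, and 1.02% in the abundant gene model just outside it. The members were present in every liver library, and 76 of the 77 stood at 100 or more in all 6. The exception was the member of rank 63, at 54.6 in Intol liver replicate 3. In 8 members the mean lay below 400 in 1 of the groups, in Tol for 5 and in Intol for 3, so these members passed the minimum through the other group.

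The 77 members held a large part of the summed liver values, and the share was larger in Tol liver. The share was 40.3%, 41.0% and 46.3% in the Tol libraries, against 38.7%, 37.8% and 39.5% in the Intol libraries. The groups did not overlap, although Tol replicate 1 lay close to Intol replicate 3. The mean was 42.5% ± 3.3 for Tol and 38.6% ± 0.8 for Intol livers (SD, n = 3 each), a difference of 3.87 percentage points. Without Tol liver replicate 3 the difference was 1.99 points. No test was made of this share, because the members were chosen with earlier results of these data known. The summed values of whole libraries ranged from 581739 to 622240 in liver and from 360680 to 373167 in brain. They are not read counts, and sequencing depth is unknown.

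**Figure D1:**
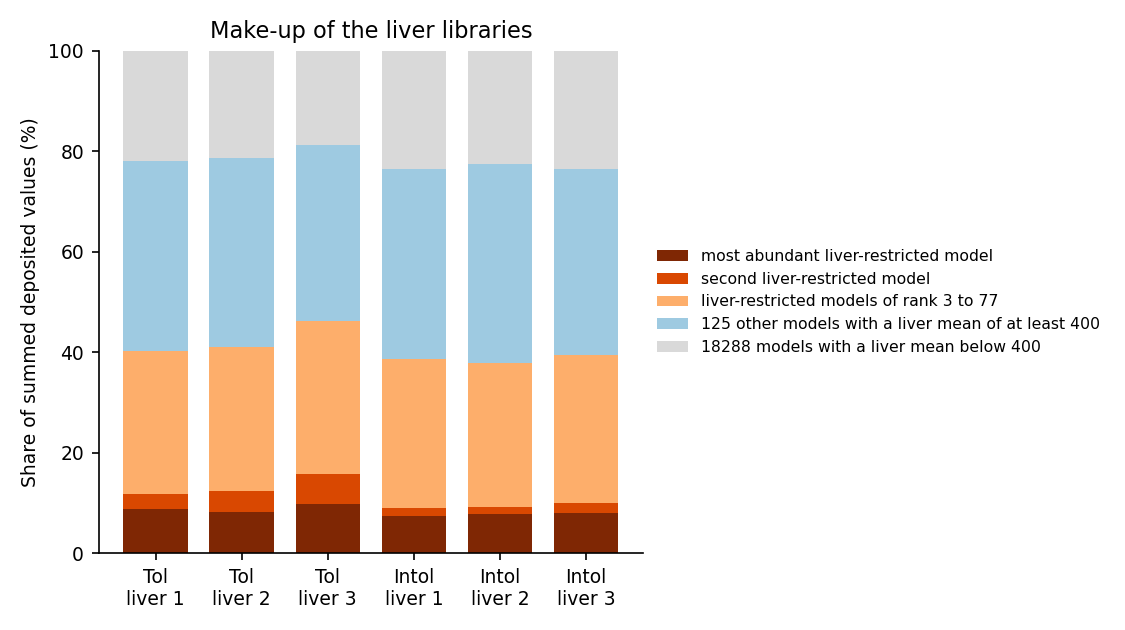
Share of the summed deposited values in each of the 6 liver libraries, in percent, split into the most abundant liver-restricted gene model, the second, the members of rank 3 to 77, the 125 other abundant gene models and all remaining ones. The 3 orange segments together reach 40.3% to 46.3% in Tol and 37.8% to 39.5% in Intol liver, and the segment of the second member is visibly thicker in Tol.

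Most of the difference in share lay in the first 2 members. The most abundant member alone held 8.94% ± 0.80 of the summed values for Tol and 7.75% ± 0.28 for Intol livers (SD, n = 3 each). The second held 2.86%, 4.17% and 5.92% in Tol libraries, against 1.57%, 1.38% and 1.96% in Intol libraries. Between them they account for 1.18 and 2.68 of the 3.87 points. The remaining 75 members differed by 0.00507 points in sum, and by -0.64 points without Tol liver replicate 3, with 28.6%, 28.6% and 30.5% in Tol libraries, against 29.6%, 28.7% and 29.5% in Intol libraries. Counted over all members, 37 had a larger mean share in Tol, adding 7.93 points, and 40 had a smaller one, for a sum of -4.065 points. With both leading members taken out of the numerator and the denominator, the share was 32.4%, 32.7% and 36.2% in Tol libraries, against 32.5%, 31.6% and 32.7% in Intol libraries, and the groups overlapped.

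The members' values were concentrated at the top of the list in both groups. The most abundant member made up 20.01% to 21.9% of the members' summed value in Tol and 19.4% to 20.4% in Intol libraries. The 10 highest members of each library made up 57.6% to 61.5% in Tol and 53.7% to 56.0% in Intol libraries. Among the 10 most abundant of all gene models, 9 were members in each Tol library, against 7, 7 and 8 in the Intol libraries. Among the 50 most abundant, 23 were members in each Tol library, against 23, 22 and 25 in the Intol libraries.

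The rule took the mean over all 6 livers and not the difference between Tol and Intol, and each member was tested in a fit over all 9109 gene models that reached a value of 1 in at least 3 liver libraries. All 77 members passed that filter. By limma on log2(value + 1), with a Benjamini-Hochberg adjusted p under 0.05 over all gene models, 11 members were higher and 24 lower in Tol liver, and 42 did not pass. Among the members 14.3% were higher and 31.2% lower, against 7.49% higher and 29.6% lower of all gene models tested. In the values as deposited the lower share was thus near the background. The 8 members with a group mean below 400 gave 1 of the higher and 4 of the lower calls, and since they passed the minimum through the group where they were high, their calls are not independent of the rule. Among the 69 other members 10 were higher and 20 lower, 14.5% and 29.0%. The 3 Tol values lay wholly above the 3 Intol values in 15 members and wholly below them in 25, or 40 of 77, where 12.3% and 40.1% of all gene models tested did so. The fold between the group means ran from 1.30 to 4.15, median 2.03, for the 11 that rose, and from 1.22 to 2.88, median 1.64, for the 24 that fell. Changes of at least 1 on the log2 scale numbered 7 higher and 6 lower, where 2.26% and 8.45% of all gene models tested moved that far.

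How many members moved each way depended on how libraries were scaled. The median change over all gene models tested was -0.20 as deposited, and 0.04 once median-ratio scaling was applied, which sets the typical gene model equal between libraries. With that scaling 22 members were higher and 7 lower, where 16.9% and 16.8% of all gene models tested were called, and the members' median change was 0.26 in place of -0.05. When libraries were brought to an equal sum over the gene models that are not members, 16 members were higher and 16 lower, where 9.74% and 22.6% of all gene models were called. Quantile normalization, which fixes the value at each rank, gave 11 higher and 23 lower, where 16.9% and 17.4% of all gene models were called. The members' median lay above the median of all gene models by 0.15 as deposited, 0.22 after median-ratio scaling and 0.17 after the equal-sum scaling, while the gap was -0.07 after quantile normalization. This gap ran from 0.04 to 0.18 with a liver library left out, lowest without Intol replicate 1, and it was 0.06 without Intol replicate 3, 0.07 without Tol replicate 2 and 0.06 without Tol replicate 3. With no filter it was 0.02, with a pseudocount of 5 it was 0.05, and with all 12 libraries in the fit 0.03. In these fits the members' median stayed at -0.05. It was the median of all gene models tested that moved, to -0.07, -0.10 and -0.08. The members' median itself was -0.16 without Tol replicate 2. No member called in the values as deposited was called with the opposite sign under any of the 16 other fits. Fitting all 12 libraries together left 11 higher and 13 lower, where 7.09% and 25.6% of all gene models were called. That fit leaves the liver change of a member as it was, and its SE also rests on the spread of the brain libraries.

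**Figure D2:**
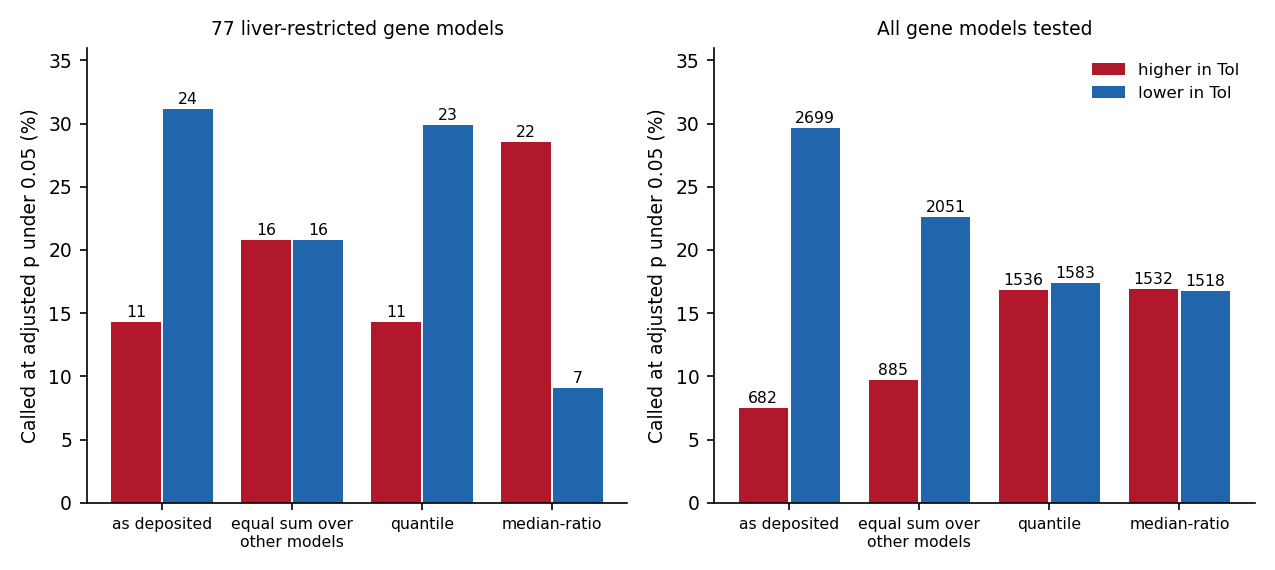
Percent of gene models higher or lower in Tol liver at an adjusted p under 0.05 (limma), with numbers above the bars, for the 77 liver-restricted gene models and for all gene models tested under 4 scalings. For the members, median-ratio scaling gives 22 higher and 7 lower in place of 11 and 24.

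In all 17 fits, 15 members held their call and direction, 8 of them higher and 7 lower in Tol. The higher ones were of rank 2, 7, 40, 47, 55, 61, 62 and 66, and the lower ones of rank 30, 37, 39, 59, 64, 68 and 73. Of these, ranks 62, 64, 68 and 73 had a group mean below 400. With each liver library left out in turn, 8 of the 11 higher calls and 14 of the 24 lower calls held in all 6 fits. How many of all gene models held their calls in this way was not counted, so nothing particular to the members is read from it. Of the 6 members that fell by at least 1 on the log2 scale, those of rank 30, 59, 64 and 68 held in all 17 fits. Among the 17 is the fit over all 12 libraries, so the list does not rest on the liver libraries alone.

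**Figure D3:**
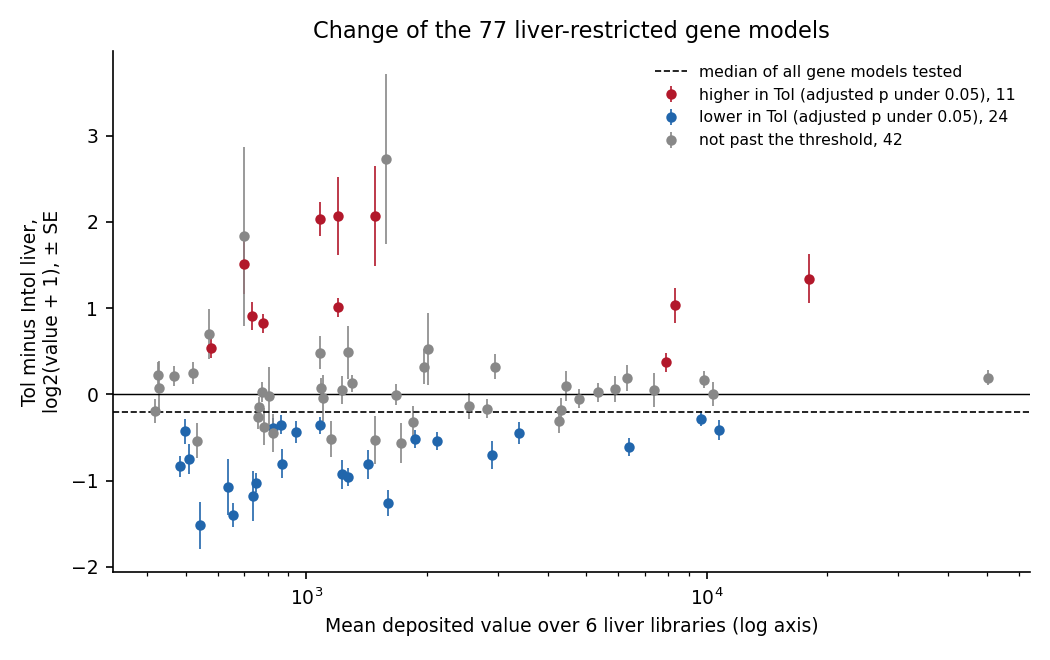
Tol minus Intol change in liver on the log2(value + 1) scale, with its SE, against the mean liver value on a log axis, for the 77 members. Red points passed as higher (11), blue points as lower (24) and grey points did not pass (42), and the dashed line is the median of all gene models tested, -0.20.

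In the values as deposited, the 13 members with a liver mean of 5000 or more had the smallest changes, by their median, of 3 classes by level. Of these, 3 were higher and 3 lower in Tol, and the median size of their changes was 0.19, against 0.48 in the 34 members between 1000 and 5000 and 0.49 in the 30 members below 1000. The median size by class was not taken under the other scalings. With its sign, the median change was 0.06, -0.09 and -0.31 from the highest class to the lowest. After median-ratio scaling the signed median was 0.37, 0.22 and -0.003. The class with the largest signed median in size was thus the lowest as deposited and the highest after that scaling. The middle class held 4 higher and 9 lower members, and the lowest class 4 higher and 12 lower. Higher and lower members made up 23.1% and 23.1% of the highest class, 11.8% and 26.5% of the middle class and 13.3% and 40% of the lowest, beside 7.49% and 29.6% of all gene models tested, and the lowest class held 7 of the 8 members with a group mean below 400. The highest class held 28.1% ± 2.8 of the summed values in Tol livers, and 23.7% ± 0.8 in Intol livers (SD, n = 3 each).

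The most abundant member had values of 52109.5, 49285.9 and 59862 in Tol livers, against 43610.5, 47993 and 49354 in Intol livers. The lowest Tol value lay within the Intol range. Its log2 change was 0.19 ± 0.09 (SE), and its adjusted p 0.112 (limma). After median-ratio scaling the change was 0.50 with an adjusted p of 0.0206, and after the equal-sum scaling 0.30 with an adjusted p of 0.0448 (limma). The equal-sum scaling leaves the members out of the sum, so a larger member share in Tol raises their values there. Quantile normalization fixes the value at each rank and left this member no change, so nothing is read from that fit. None of the remaining fits called this member.

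The second member rose 2.63-fold. It stood at 16915, 25025.5 and 36212 in Tol livers, against 9157, 8599.8 and 11978 in Intol livers. Every Tol library exceeded every Intol library, and the Tol libraries were spread widely among themselves. The log2 change was 1.34 ± 0.28 (SE; limma, adjusted p = 0.0128), and 1.07 to 1.62 with each library left out. Rank 7 rose 2.03-fold, with 13726, 9916 and 9750.1 in Tol livers, against 5313, 6946 and 4202 in Intol livers. Its log2 change was 1.03 ± 0.20 (SE; limma, adjusted p = 0.00711). These were the only members of the highest class with a change of at least 1. Rank 8 was the third one higher in this class, 1.30-fold. Leaving out Intol replicate 1 or 2 or Tol replicate 2 or 3 lost its call, at an adjusted p up to 0.0953 (limma). The call of rank 8 was also lost without the trend and robust options (0.0712), with no filter (0.0738) and with all 12 libraries in the fit (0.454).

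Falls in the highest class were smaller. Rank 3 stood at 9551, 8115 and 10002 in Tol livers, against 10669.8, 12476 and 13632 in Intol livers. The groups were apart, but by a small margin at the nearest libraries. Its log2 change of -0.41 ± 0.12 (SE) had an adjusted p of 0.0234 (limma), which became 0.626 after median-ratio scaling, and the call was lost without Intol replicate 2 or 3 or Tol replicate 2, at up to 0.0946. The member of rank 10 was lower with more margin, at 5519, 4808 and 4853 in Tol livers, against 7134, 7376 and 8703 in Intol livers, an adjusted p of 0.00292 (limma) and 0.0959 after median-ratio scaling. Rank 6 fell by 0.28 on the log2 scale with an adjusted p of 0.0304 (limma), but median-ratio scaling brought its change to 0.02 (adjusted p = 0.875), and in the values as deposited the call was lost without Intol replicate 1 or 3 or Tol replicate 2 or 3, at up to 0.114. With all 12 libraries in the fit, the calls of rank 3, 10 and 6 were lost, at adjusted p of 0.654, 0.0929 and 0.817 (limma). Their liver changes were the same in that fit, -0.41, -0.61 and -0.28. Its SE also rests on the spread of their brain values, so these losses do not speak to the liver libraries alone. Some members of this class were nearly equal between the groups. That of rank 4 averaged 10409 in Tol and 10360.0 in Intol livers, a log2 change of 0.00 ± 0.14 (SE).

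**Figure D4:**
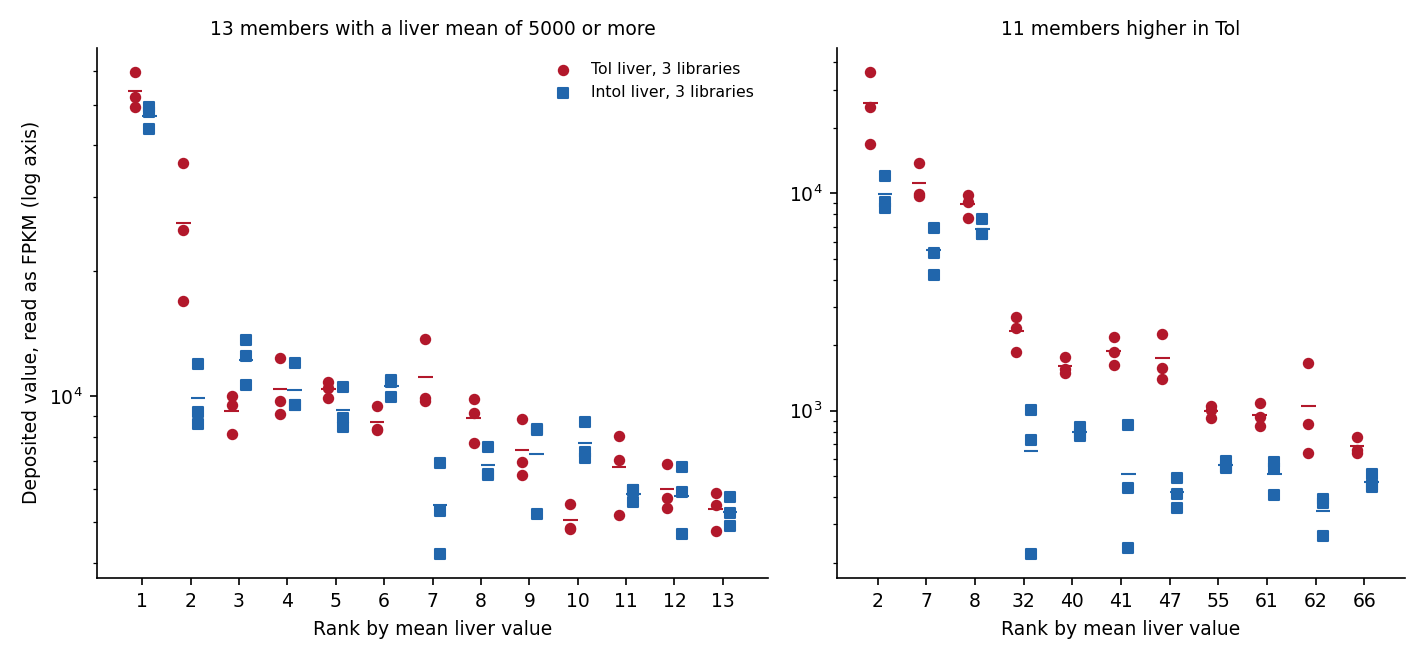
Deposited values in the 3 Tol liver (circles) and 3 Intol liver (squares) libraries on a log axis, with group means as lines, for the 13 members with a liver mean of 5000 or more (left) and the 11 members higher in Tol (right), labelled by rank. In the right panel each member's Tol values lie above its Intol values, and the member of rank 2 spans 16915 to 36212 in Tol.

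The largest rises that met the rule for naming were those of Trachinotus_GLEAN_10018522 and Trachinotus_GLEAN_10019535, of rank 41 and 32. Trachinotus_GLEAN_10018522 was at 2173, 1629 and 1866 in Tol livers, against 440, 858 and 234 in Intol livers. Its log2 change was 2.07 ± 0.45 (SE; limma, adjusted p = 0.0149), and the call was lost without Tol liver replicate 1, at an adjusted p of 0.0882. Trachinotus_GLEAN_10019535 was at 2687, 1860.0 and 2399 in Tol livers, against 729.6, 1003 and 219.7 in Intol livers. In both models the Intol libraries spread widely and Intol replicate 3 was the lowest. The change of Trachinotus_GLEAN_10019535 was 2.07 ± 0.58 (SE; limma, adjusted p = 0.0381). Its call was lost without Intol liver replicate 1 (0.0567) and without Tol liver replicates 1, 2 or 3 (0.164, 0.0716 and 0.0762). Intol replicate 3 was the lowest Intol library for 6 of the 11 members that rose, and for 498 of the 682 gene models that rose.

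A rise of the same size but with tighter Intol libraries was seen in the member of rank 47. It stood at 1579, 1402 and 2261 in Tol livers, against 415, 491 and 356 in Intol livers, a 4.15-fold difference. The log2 change was 2.03 ± 0.19 (SE; limma, adjusted p = 0.000452), and 1.83 to 2.18 with a library left out. Rank 62 had a 3.06-fold difference, with 637, 1661 and 867 in Tol livers, against 377, 390.3 and 266 in Intol livers. Its adjusted p was 0.0146 (limma). Its Intol mean of 344.6 was below 400, so it entered the list through its Tol values.

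The largest fold between group means, 7.86, belonged to a member that did not pass. The member of rank 31 stood at 548, 3753 and 4127 in Tol livers, against 148, 325 and 599.6 in Intol livers. Tol replicate 1 lay inside the Intol range while the other Tol libraries were far above it. The log2 change of 2.73 ± 0.98 (SE) had an adjusted p of 0.0846 (limma), and 0.0298 after median-ratio scaling. It also passed with all 12 libraries in the fit (0.0103), with the replicate block (0.00704) and without Tol replicate 1 (0.0247). So it did without the trend and robust options (0.03) and with a filter on a mean of at least 5 (0.041). In the remaining fits this member did not pass. With an Intol mean of 357.6, it too was a member through its Tol values, and its fold is a description of that choice. Rank 63, which did not pass either, had all 3 Tol values, 1366, 739 and 836, above the Intol values of 459.9, 729.8 and 54.6, and an adjusted p of 0.226 (limma).

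The largest falls were those of Trachinotus_GLEAN_10008761 and Trachinotus_GLEAN_10008862, of rank 68 and 64, both among the lower-abundance members. Trachinotus_GLEAN_10008761 was at 212, 250.1 and 376 in Tol livers, against 1094, 709 and 608 in Intol livers. Its log2 change was -1.52 ± 0.27 (SE; limma, adjusted p = 0.00467). Trachinotus_GLEAN_10008862 was at 326, 348 and 404 in Tol livers, against 1096, 856 and 896 in Intol livers. Its change was -1.40 ± 0.14 (SE; limma, adjusted p = 0.000452). In both models the highest Tol library was well under the lowest Intol library, and Intol replicate 1 was the highest. The changes ran from -1.75 to -1.21 and from -1.49 to -1.09 over the 16 other fits, and each call held in all of them. Both models had a Tol mean below 400, so they entered the list through their Intol values.

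Among the other falls that held in all 17 fits were those of rank 59 and 37. Rank 59 stood at 499.3, 486 and 495 in Tol livers, against 1090.0, 978 and 951 in Intol livers. Rank 37 stood at 839.8, 839 and 899 in Tol livers, against 1566, 1659 and 1809 in Intol livers. Their log2 changes were -1.02 ± 0.11 and -0.96 ± 0.11 (SE), with adjusted p of 0.000544 and 0.000583 (limma). The member of rank 30 fell most among those above 1000, to 883, 926 and 989 in Tol livers, against 2513, 1766 and 2502 in Intol livers. Its change was -1.26 ± 0.15 (SE; limma, adjusted p = 0.000728).

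Beside the 125 abundant gene models that were also present in brain, the members were more often called in the values as deposited. Of the members 45.5% were called, against 13.6% of those 125, of which 9 were higher and 8 lower in Tol liver, and against 37.1% of all gene models tested. The 125 were not alike between the groups, however. In 10 of them the 3 Tol values lay wholly above the 3 Intol values and in 53 wholly below, against 15 and 25 of the 77 members. Of the 125 changes 108 were negative, with a median of -0.13 as deposited and 0.18 after median-ratio scaling. The median size of a change was 0.44 in the members and 0.15 in the 125, and the median SE of a change was 0.15 and 0.11. The median coefficient of variation within a group was 12.1% in Tol and 13.5% in Intol livers for the members, and 5.00% in Tol and 8.68% in Intol livers for the 125. By these medians the members varied more than the 125 both within and between groups. Over all 9109 gene models tested, the median coefficient of variation was 14.7% in Tol and 16.2% in Intol livers. The median SE there was 0.157 and the median size of a change 0.35. Within groups the members thus did not vary more than gene models at large. These sets are set side by side as a description, and the difference between them was not tested.

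Some members carried consecutive identifier numbers. There were 11 such members (14.3%) in 6 adjoining pairs, and 5 of the 125 other abundant gene models (4%) had a neighbour among themselves. What the numbering stands for is not given in the sources used here. The change had the same sign in both models of all 6 pairs, but the sign alone says little. Rank 29, paired with rank 33, changed by only -0.005 ± 0.12 (SE). Rank 54 was paired both with rank 51 and with rank 23. Of all 9109 gene models tested, 6117 had a negative change. The members of rank 40 and 55 both rose. That of rank 40 had 1562, 1489 and 1769 in Tol livers, against 845, 763 and 779 in Intol livers. That of rank 55 had 1012, 921 and 1049 in Tol livers, against 588, 543 and 551 in Intol livers. Their log2 changes were 1.01 and 0.82, and their ratio stayed between 1.41 and 1.69 in all 6 libraries. The members of rank 51 and 54 had almost the same value in each library, with a ratio of 0.990 to 1.10, and neither passed. Whether neighbouring models share reads was not tested, since their sequences were not used here, and their values are therefore uncertain. Without the 11 neighbouring members, 9 of 66 members were higher and 20 lower in Tol liver, 13.6% and 30.3%.

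In brain the members held 0.133% to 0.142% of the summed values in Tol and 0.146% to 0.169% in Intol libraries. On average 55.9% of that came from the most abundant member, at 297, 281 and 299 in Tol brains, against 337, 323 and 285 in Intol brains. For description, the members were divided by their brain mean at 0.1% of the liver mean, a limit chosen with the values in view. The higher range held 17 members and the lower range 60. Of all members, 1 was listed at 0 in all 6 brain libraries. That one was the member of rank 40.

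In the lower range, Intol brain replicate 2 stood above the other libraries. The median of the 60 members, as a percent of each member's liver mean, was 0.0131%, 0.00948% and 0.0185% in Tol brains, against 0.0330%, 0.0679% and 0.00915% in Intol brains. Intol brain replicate 2 was the highest of the 6 libraries for 48 of these 60 members. It was the highest for 12.6% of the 14121 gene models outside the members that passed the brain filter. Of the 60 members only 10 passed that filter, so these sets stood at unlike levels. In that library the quartiles of the ratio to liver were 0.0507% and 0.0887%, and in Intol brain replicate 1 they were 0.0224% and 0.0507%. The limit of 0.1% that chose these members bounds the spread of the ratio, so nothing is read from its narrowness. The summed value of the 60 members was 104 in Intol brain replicate 2, 53.8 in Intol brain replicate 1 and 20.4 to 30.5 in the other brain libraries. The 17 members of the higher range had medians of 0.413% to 0.529% in Tol and 0.284% to 0.426% in Intol brains. The file of Intol brain replicate 2 repeats the values of Intol brain replicate 1 in a second block, which was left out. Whether liver RNA in a brain library had a part in these values was not tested. Without Intol brain replicate 2 the rule chose 77 members as well, with 11 higher and 24 lower in Tol liver.

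**Figure D5:**
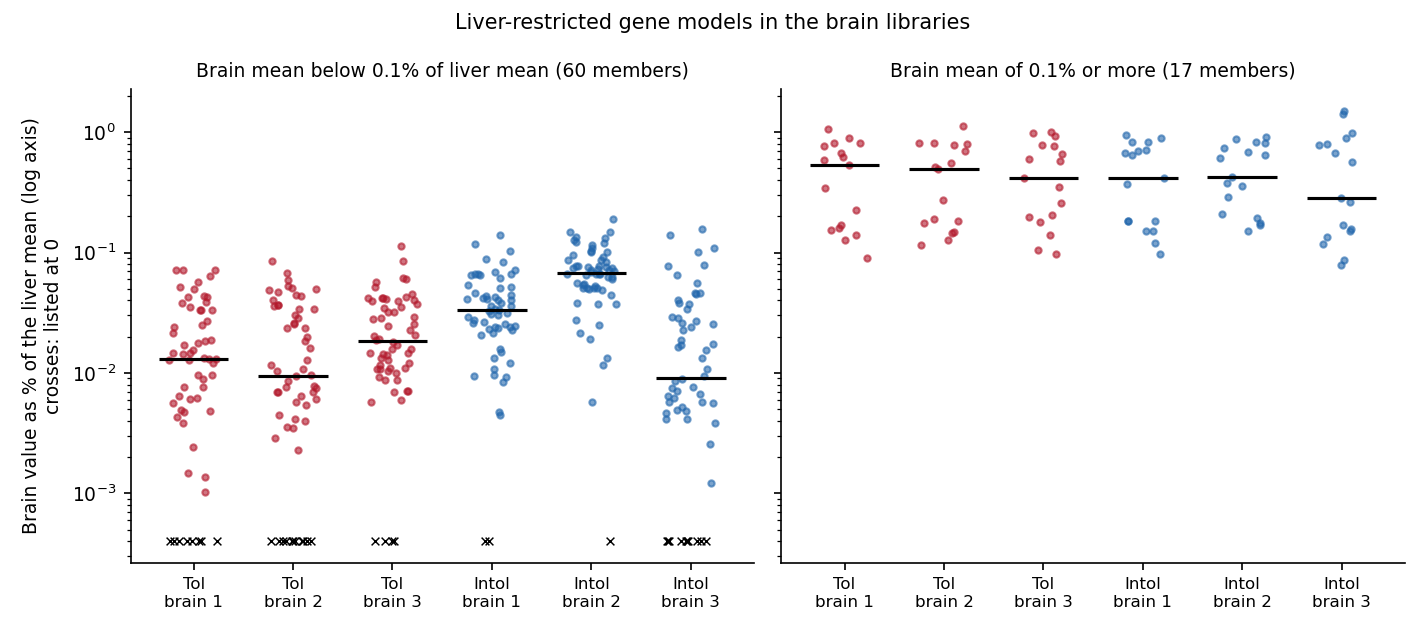
Value of each member in each brain library as a percent of its mean liver value, on a log axis, for the 60 members with a brain mean below 0.1% of the liver mean (left) and the 17 at or above it (right). Lines are medians and crosses are values listed at 0. On the left, Intol brain replicate 2 has the highest median, 0.0679%, while on the right the medians lie between 0.284% and 0.529%.

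No member was called in brain by the same test. Of the 77, 25 passed the filter in brain, and 0 of them were called (limma), where 0.0212% of 14146 gene models were. The unadjusted p was under 0.05 for 2 of the 25 (limma), where it was for 17.0% of all gene models tested in brain, and the smallest adjusted p was 0.157. The smallest belonged to the member of rank 18, at 0.5, 0 and 0.58 in Tol brains, against 1.75, 3.92 and 1.15 in Intol brains, so that it passed the filter through its Intol values alone. Of the 25, 17 stood at 1 or more in all 6 brain libraries. The 8 others, 7 of them in the lower range, where Intol brain replicates 1 and 2 were high, did not, and no direction is read from the members that passed.

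For the 25 members tested in both tissues, the change in liver was also set against the change in brain (limma, interaction over the 12 libraries). It differed for 3 of them at an adjusted p under 0.05, where 31.9% of the 8464 gene models that passed in both tissues differed. Without Intol brain replicate 3 the number was 11, and without Intol brain replicate 2 or Intol liver replicate 1 it was 5. How many of all gene models differed in these reduced fits was not counted. Nothing particular to the members is therefore read from these numbers. The member of rank 30 was lower in Tol liver, while its brain values were 16.9, 17.9 and 15.9 in Tol, against 13.3, 14.1 and 14.3 in Intol. The brain groups were apart in the direction opposite to liver, and the brain change of 0.27 ± 0.07 (SE) had an adjusted p of 0.166 (limma). Its liver change minus its brain change was -1.52 ± 0.18 (SE; limma, adjusted p = 0.000438). The member of rank 7, which rose in Tol liver, stood at 12.8, 12.4 and 11.5 in Tol brains, against 12.5, 12.6 and 11.1 in Intol brains, and the brain groups overlapped. Its difference between the tissues was 1.01 ± 0.24 (SE; limma, adjusted p = 0.0134). Rank 37 had a difference of -0.91 ± 0.18 (SE; limma, adjusted p = 0.00540), and after median-ratio scaling within each tissue the adjusted p was 0.0686.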

How the data were processed

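Liver and brain mRNA was measured in 12 libraries. Per the labels' protocols, TruSeq libraries were prepared from RNA of integrity number over 8 and read in pairs of 125 bp on a HiSeq; adaptors, ambiguous bases and poor reads were removed, and Trinity assembled the rest. How reads were counted and scaled, and on which genome build, is not given in the sources used here. The deposited values have at most 2 decimals and sums that differ between libraries, and were read as FPKM made by the authors. The depth behind them is unknown, so no counting interval is given. A further block in the file of Intol brain replicate 2, whose 18490 values all equal those of Intol brain replicate 1, was not used.

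The members and lists were chosen with earlier results of these data known. Each tissue was fitted over the whole table by limma (version 3.58.1, R 4.3.3) on log2(value + 1) with group means, a variance trend and robust moderation, for gene models that reached a value of 1 in 3 or more libraries. A Benjamini-Hochberg adjusted p under 0.05 was a call, and changes are Tol minus Intol, which the pseudocount of 1 hardly alters at the members' liver levels. The same model over 12 libraries gave the difference between tissues, a test added after the data were seen. The fits were also run on simulated data in which few gene models changed and libraries did not differ in scale. That setting is unlike these livers, so it cannot speak to the choice of scaling. The identifiers named are the 2 largest rises and falls among called members whose groups do not overlap. Marker and pathway lists could not be used, since 0 gene models matched a gene name. The alternatives were other scalings, pseudocounts of 0.1 and 5, other filters, limma without trend and robust options, 12 libraries in one fit, the replicate number as a block, libraries left out, and other limits of the rule. Software was pandas 2.3.3 and NumPy 2.4.6 under Python 3.11.15, with matplotlib 3.10.9 for figures.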

Additional observations from a re-analysis of the deposited data

Results flagged for a closer look

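For 3 members present in brain at 0.1% of their liver level or more, the Tol-against-Intol change differed between the tissues by the test of that difference (limma over 12 libraries). These were 3 of the 25 members tested in both tissues, where 31.9% of 8464 gene models differed, so such a difference is not particular to the members. The change in liver minus the change in brain was 1.01 for the member of rank 7, -1.52 for that of rank 30 and -0.91 for that of rank 37. Over the median-ratio scaling, the fit with a replicate block and the 12 fits that left out a library, these values ran from 0.84 to 1.36, from -1.69 to -1.18 and from -1.005 to -0.57. The adjusted p was at most 0.0350 for rank 7 and 0.00281 for rank 30, and it reached 0.0686 for rank 37 after median-ratio scaling. In the fits that left out a library, rank 37 stayed past the threshold. Their brain levels were low, at 0.146%, 0.965% and 0.330% of the liver mean, and log2(value + 1) understates changes at such levels.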

How the results depend on the processing

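After median-ratio scaling 22 members were higher and 7 lower in Tol liver, in place of 11 and 24, and with all 12 libraries in the fit 13 were lower. With a change of at least 1 on the log2 scale required as well, 7 were higher and 6 lower. A liver minimum of 200 gave 120 members with 18 higher, and a minimum of 800 gave 53 with 7 higher, with Intol shares of the liver values of 40.5% and 36.1%. With a brain limit of 0.5% the shares were 30.8% in Tol and 27.1% in Intol liver, and with 2% the Intol share was 40.02%. The shares were 36.9% in Tol and 33.5% in Intol without the most abundant member, and 33.8% and 32.3% without the first 2. The other scalings, filters, pseudocounts and limits kept the counts within 1.5 times. With a liver library left out, 10 to 12 members were higher and 16 to 21 lower. Of all gene models tested in those fits, 8630 to 9012, 372 to 669 were higher and 1746 to 2249 lower. The background thus moved as well. The number that differed between tissues was 3 to 11 with a library left out, and the share of all gene models in those fits was not counted. The cause of these shifts was not tested. The brain alternatives, those of the difference between tissues and the omission of the first 2, of neighbouring members or of those with a group mean below 400 were chosen after seeing the data.

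Whether the replicate numbers pair the samples could not be decided, because the correlations below rest on 3 libraries per group. The deviations of same-numbered Tol and Intol livers correlated at 0.0995, -0.124 and 0.0814, and of differently numbered ones at -0.322 to 0.316. Brains gave -0.0797, 0.131 and 0.179 for the same number, and -0.247 to 0.116 for different numbers. Same-numbered liver and brain gave 0.0326, 0.00941 and 0.0435 in Tol and 0.0428, 0.0856 and 0.115 in Intol. Differently numbered liver and brain gave -0.05995 to 0.0281 in Tol and -0.0982 to 0.0407 in Intol. With the replicate block 14 members were higher and 24 lower, where 786 and 2727 of all 9109 gene models tested were. Under that block the calls of Trachinotus_GLEAN_10018522 and Trachinotus_GLEAN_10019535 were lost (adjusted p of 0.0641 and 0.131, limma). With status and number as a block over both tissues, 4 members differed between the tissues in place of 3. The share of all gene models that differed in that fit was not counted. In brain 0 members were called under the block, the scaling and each library left out. Low brain values limit what could be seen there.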
